A study of Rattus norvegicus with 12 samples.

Results

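Apoe and the genes around the liver X receptors (LXRs) were followed through the 12 libraries of an RNA-seq experiment on primary rat atrial fibroblasts. Apoe was selected on its measured log2 fold change, a large increase in AngII+HNG over AngII, and the other 9 genes were taken because they encode the LXRs or are well known LXR targets of sterol efflux and lipid handling. The 10 genes are Nr1h2, Nr1h3, Apoe, Abca1, Abcg1, Pltp, Mylip, Srebf1, Scd and Lpcat3. All 10 were found among the 22850 rows of the count table, where each is listed once under its symbol. Since the comparison of HNG with AngII chose Apoe, its values in that comparison, and in the comparison of HNG with MOTS-c, which uses the same HNG libraries, are given as a description, with no p-value; where a gene is said to be past the threshold there, the call describes the values that led to the choice and supports nothing. The other 9 genes were named with those results known and are treated in the same way. The comparison of MOTS-c with AngII was not used in the choice and is tested, although it shares the AngII libraries with the comparison that was.

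The fibroblasts came from the atria of Sprague-Dawley rats aged 1 to 3 days and were separated from myocytes by differential adhesion. All 3 groups received 1 μmol/L angiotensin II (AngII), a peptide hormone that activates cardiac fibroblasts, for 48 h in medium with 2% serum. The first group received AngII alone, another was pretreated for 1 h with 10 μmol/L HNG, a glycine-substituted analog of the mitochondrial peptide humanin, and the last was pretreated for 1 h with 5 μmol/L MOTS-c, another peptide encoded in mitochondrial DNA. The groups are called AngII, AngII+HNG and AngII+MOTS-c, with 4 libraries each. Both peptides stayed on during the 48 h with AngII. AngII was present in every library, so the values show what the peptides changed in AngII-treated cells and give no level without AngII. The doses of the peptides differed, so the comparison of HNG with MOTS-c is not one at matched dose, and how many animals stood behind each library is not given in the sources used here.

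LXRs are nuclear receptors that bind oxysterols and other sterol intermediates, pair with retinoid X receptors, and switch on genes that move cholesterol out of the cell. ApoE is the lipid-carrying protein that accepts this cholesterol outside the cell and delivers it to receptors of the low-density lipoprotein receptor family. In macrophages, Apoe, Abca1, Abcg1, Pltp and Mylip are classical LXR targets, and Srebf1, Scd and Lpcat3 form the arm of the LXR response that makes and remodels fatty acids and phospholipids.

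Total counts were between 27960586 and 38322354 per library, and the lowest of the 10 genes, Nr1h3, had 68 to 145 counts. Expression is given as CPM (counts scaled to library size, with trimmed-mean factors over all 12 libraries) when 1 gene is compared across libraries, and as the deposited FPKM, which is divided by gene length, when genes are compared with each other. The fibroblast label was checked against 10 marker genes, whose summed level was 62866 to 67383 CPM in AngII, 61091 to 69142 CPM in AngII+HNG and 63085 to 67140 CPM in AngII+MOTS-c. Markers of other cell types were present too. The 7 cardiomyocyte markers summed to 5614 to 7509 CPM over the 12 libraries, with 1650 to 2541 CPM for Myh6. In bulk RNA, fewer cells of a type and less RNA per cell cannot be told apart.

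Promoter sequence is shown for Apoe and for Abca1, the only one of the 9 genes searched with an LXR-like repeat in its window, so that the searched motifs can be seen. RefSeq promoters of the GRCr8 assembly, from 250 bases before to 50 bases after each start, were matched for 9 of the 10 genes, and Abcg1 was not matched. An LXR element was searched on both strands as a direct repeat of AGGTCA with a gap of 4 bases and up to 2 mismatches over its 12 half-site bases. It was found in 2.93% of the 33469 promoters and in none of the 9 genes. With up to 3 mismatches, a setting added after this result was seen, 21.9% of promoters held a match and Abca1 was the only one of the 9 genes that did, at 70 to 55 bases before its start. The 3 windows are printed 5′ to 3′ on the strand of the gene, with the match in capitals. They cover the LXR-like repeat of Abca1, which reads on the opposite strand of the gene, the E-box of Abca1, and a GC box of Apoe.
Abca1 LXR-like repeat, chr5:72596521-72596550, minus strand: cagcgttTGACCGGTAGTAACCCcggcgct
Abca1 E-box, chr5:72596605-72596634, minus strand: gggccatagctcCACGTGctttctgctgag
Apoe GC box, chr1:88484703-88484732, minus strand: gccctgaggaggGGGCGGggcagggggagt

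The E-box CACGTG, to which SREBP-type factors can bind, was in 6.42% of promoters and, among the 9 genes, in Abca1. The GC box GGGCGG was in 33.1% of promoters and in those of Apoe, Lpcat3, Abca1, Srebf1 and Mylip. The NF-Y box CCAAT was in 37.5% of promoters and in those of Apoe, Lpcat3, Srebf1 and Mylip. The SREBP element TCACNCCAC was in 1.12% of promoters and in none of the 9. These matches describe letters in a short window and say nothing about binding outside it.

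Between genes, the levels per length spread widely. In the AngII libraries Apoe was the highest of the 10 at a mean of 99.6 FPKM, followed by Lpcat3 at 64.3, Scd at 46.1, Srebf1 at 34.1, Nr1h2 at 24.0 and Pltp at 15.1 FPKM. Abca1 at 7.70 FPKM and Mylip at 7.03 FPKM came next and overlapped between libraries, and Abcg1 at 5.27 FPKM and Nr1h3 at 1.67 FPKM were the lowest. No other pair of neighbours in this order overlapped. Apoe made up 31.1% to 34.1% of the summed FPKM of the 10 genes in AngII, 31.1% to 37.2% in AngII+MOTS-c and 44.9% to 54.6% in AngII+HNG. Among all genes, its FPKM ranked between 577 and 674 in AngII, between 489 and 663 in AngII+MOTS-c and between 237 and 315 in AngII+HNG.

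**Figure D1:**
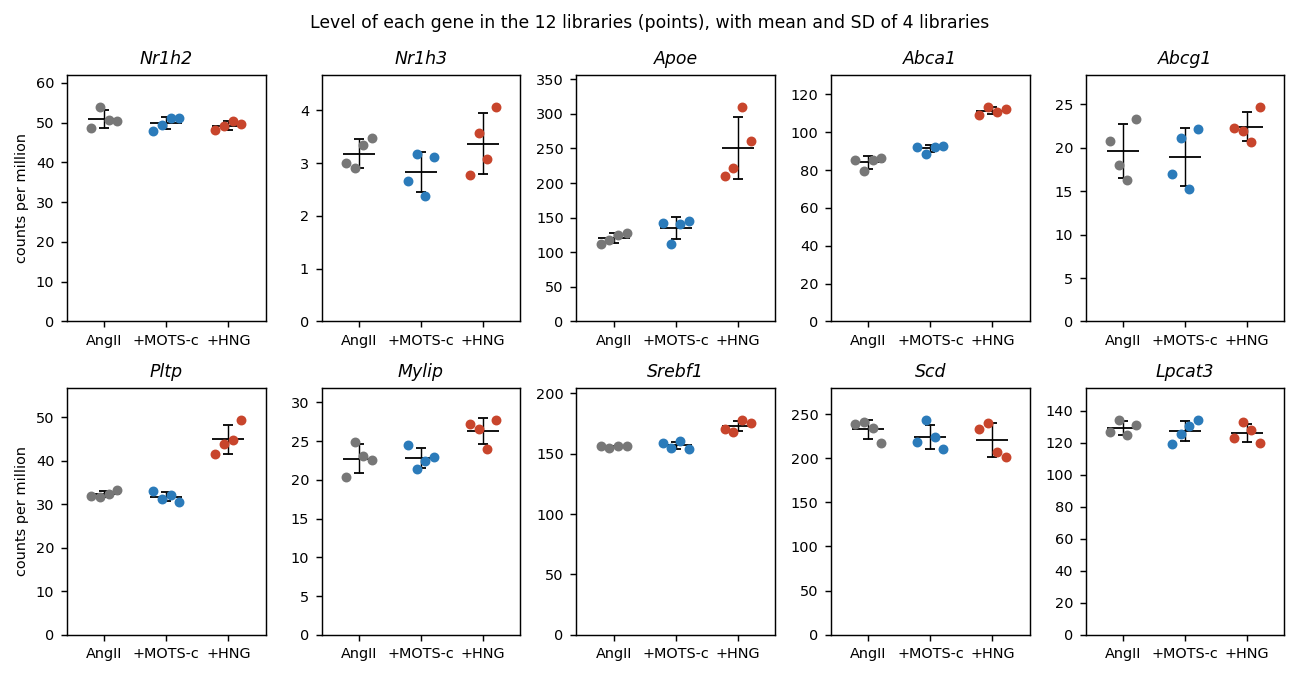
Level of each gene in CPM (vertical axes, each starting at 0) in the 12 libraries, with points for libraries and black lines for the mean and SD of 4 libraries per group. The AngII+HNG points of Apoe, Abca1, Pltp and Srebf1 lie above every other point, and the 4 AngII+MOTS-c points of Abca1 lie between the other 2 groups.

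Both receptor genes overlapped between all groups. Nr1h2, which encodes LXRβ, the form present in most tissues, had 51.0 ± 2.23 CPM in AngII, 49.3 ± 1.01 CPM in AngII+HNG and 49.9 ± 1.59 CPM in AngII+MOTS-c (SD, n = 4 each). Its 12 values lay between 47.8 and 54.0 CPM, and the groups overlapped. The log2 fold change was -0.043 (95% interval -0.14 to 0.057) for HNG against AngII and -0.029 (95% interval -0.12 to 0.062) for MOTS-c against AngII, where the adjusted p from edgeR's quasi-likelihood test was 0.962.

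Nr1h3 encodes LXRα, the form enriched in liver, fat and macrophages. It had 2.998, 2.91, 3.35 and 3.47 CPM in AngII, 2.77, 3.57, 3.08 and 4.07 CPM in AngII+HNG, and 2.66, 3.17, 2.38 and 3.13 CPM in AngII+MOTS-c. The groups overlapped, and the spread within AngII+HNG covered all of the AngII values. The intervals were the widest of the 10 genes, at -0.21 to 0.40 for the log2 fold change of HNG against AngII and -0.45 to 0.13 for MOTS-c against AngII (adjusted p = 0.939, edgeR). Per length, Nr1h2 was 10.7 to 19.8 times higher than Nr1h3 in the 12 libraries.

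Apoe differed most between the groups. It stood at 111.3, 117.7, 124.8 and 128.3 CPM in the AngII libraries. With HNG, it stood at 210.8, 222.3, 310.2 and 261.3 CPM. The lowest AngII+HNG library was thus above the highest AngII library, and the spread within AngII+HNG was wider, with an SD of 44.9 CPM against 7.56 CPM. AngII+HNG replicate 3, highest in Apoe, also stood apart across genes. Its counts differed from the other libraries of the group by a chi-square of 14.3 to 19.4 per gene, against 5.31 to 8.89 in the remaining pairs. The fitted log2 fold change of HNG against AngII was 1.06 (SE 0.10), a 2.09-fold higher level, and 37 of the 14524 genes tested had a larger increase.

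With MOTS-c, Apoe stood at 142.0, 111.4, 140.5 and 145.8 CPM. Of these 4 libraries, 3 lay above every AngII library, and the remaining one, replicate 2, lay at the level of the lowest AngII library. The log2 fold change of MOTS-c against AngII was 0.16 (SE 0.072, 95% interval 0.0077 to 0.32), with an unadjusted p of 0.0411 and an adjusted p of 0.924 in edgeR's quasi-likelihood test. The mean difference of 0.157 in log2 CPM gave p = 0.171 in the two-sided exact permutation test over all 70 assignments of the 8 libraries, whose smallest possible p is 0.0286. With a block on the numbers in the library names, the fitted log2 fold change was 0.098. Replicate 1 has the number 1 in AngII and 2 in AngII+MOTS-c, so each stands alone in its block. That value thus rests on replicates 2 to 4. On the log2 FPKM scale the difference was 0.167, with p = 0.143 in the same exact test. Without AngII+MOTS-c replicate 2 the difference was 0.246 in log2 CPM and the exact p was 0.0286, the smallest that 3 libraries against 4 can give. The other 3 libraries lay above every AngII library, so the choice of library fixed this p, and it supports nothing. In edgeR's quasi-likelihood test, the adjusted p for Apoe ran from 0.407 to 0.993 over the 8 fits that left out 1 library. AngII+HNG was above AngII+MOTS-c in all libraries, with a log2 fold change of 0.90 (SE 0.11).

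Among the cholesterol transporters, Abca1 differed and Abcg1 spread widely. Abca1 encodes the pump that loads cholesterol and phospholipid onto lipid-poor apolipoproteins such as ApoE. It was at 85.1, 79.3, 85.2 and 86.6 CPM in AngII, at 92.3, 88.5, 92.1 and 92.9 CPM in AngII+MOTS-c, and at 109.4, 113.5, 110.7 and 112.3 CPM in AngII+HNG. The 3 groups did not overlap, and their SDs were 3.22, 2.00 and 1.80 CPM in that order. HNG against AngII gave a log2 fold change of 0.41 (SE 0.039), and HNG against MOTS-c gave 0.29 (SE 0.037). MOTS-c against AngII gave 0.12 (SE 0.035, 95% interval 0.048 to 0.20), with 4 of 4 libraries above every AngII library and an unadjusted p of 0.0038, but the adjusted p over the 14488 genes tested was 0.924 (edgeR's quasi-likelihood test).

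Abcg1, which encodes a pump that adds cholesterol to formed high-density lipoprotein particles, had 20.8, 17.96, 16.3 and 23.3 CPM in AngII, 22.3, 22.0, 20.7 and 24.7 CPM in AngII+HNG, and 17.002, 21.2, 15.2 and 22.2 CPM in AngII+MOTS-c. The groups overlapped. The log2 fold change was 0.20 (95% interval -0.016 to 0.41) for HNG against AngII and -0.050 (95% interval -0.32 to 0.22, adjusted p = 0.976, edgeR) for MOTS-c against AngII. Without AngII replicate 3 the value for HNG against AngII was 0.12, and over the 8 fits that left out 1 library it ran from 0.12 to 0.29. The interval for HNG against AngII thus held both no difference and differences of nearly the size seen for Abca1.

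Pltp, the phospholipid transfer protein that remodels lipoproteins outside the cell, had a narrow spread in 2 of the groups. It was at 31.9, 31.7, 32.4 and 33.2 CPM in AngII and at 33.0, 31.2, 32.05 and 30.6 CPM in AngII+MOTS-c. In AngII+HNG it was at 41.6, 43.9, 44.8 and 49.4 CPM, above every library of the other groups. The log2 fold change was 0.48 (SE 0.056) for HNG against AngII and 0.50 (SE 0.059) for HNG against MOTS-c. For MOTS-c against AngII it was -0.025 (95% interval -0.12 to 0.069, adjusted p = 0.971, edgeR), an interval that holds no difference of the size seen with HNG.

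Mylip encodes the ubiquitin ligase, also called IDOL, that sends the low-density lipoprotein receptor to degradation. Its levels were 20.4, 25.0, 23.0 and 22.6 CPM in AngII, 27.2, 26.5, 24.0 and 27.7 CPM in AngII+HNG, and 24.6, 21.4, 22.4 and 23.0 CPM in AngII+MOTS-c. Replicate 3 of AngII+HNG was the library that overlapped the AngII group. The log2 fold change was 0.22 (95% interval 0.069 to 0.37) for HNG against AngII and 0.0072 (95% interval -0.14 to 0.16, adjusted p = 0.997, edgeR) for MOTS-c against AngII. Mylip was not among the genes past the threshold for HNG against AngII with all libraries, and it was without AngII+HNG replicate 3, where its log2 fold change was 0.26.

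The genes of fatty acid and phospholipid synthesis divided. Srebf1, which encodes the transcription factor SREBP1 that drives fatty acid synthesis, was at 156.0, 154.8, 156.2 and 156.6 CPM in AngII, at 158.7, 154.3, 160.3 and 154.3 CPM in AngII+MOTS-c, and at 170.4, 168.1, 177.9 and 175.5 CPM in AngII+HNG. The AngII+HNG libraries were above all others, by a small amount: the log2 fold change against AngII was 0.15 (SE 0.035). It was past the threshold with all libraries, but not without AngII replicate 1, 2 or 3 or AngII+HNG replicate 4, where its value was 0.15 in each. Against MOTS-c the log2 fold change was 0.14 (SE 0.038) and not past the threshold. For MOTS-c against AngII it was 0.011 (95% interval -0.049 to 0.071, adjusted p = 0.977, edgeR).

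Scd encodes stearoyl-CoA desaturase, which makes monounsaturated fatty acids, and lay between 217.3 and 241.2 CPM in AngII, 200.9 and 239.5 CPM in AngII+HNG and 210.7 and 243.2 CPM in AngII+MOTS-c. Its paralog Scd2 stood at 2378 to 2664 CPM over the 12 libraries, and reads that fit both genes may have been divided between them. Lpcat3, which puts polyunsaturated fatty acids into membrane phospholipids, lay between 124.6 and 134.1 CPM in AngII, 120.0 and 133.2 CPM in AngII+HNG and 119.2 and 133.9 CPM in AngII+MOTS-c. All groups overlapped for both genes. The log2 fold changes of HNG against AngII were -0.075 for Scd (95% interval -0.20 to 0.050) and -0.030 for Lpcat3 (95% interval -0.12 to 0.063). Those of MOTS-c against AngII were -0.053 for Scd (95% interval -0.15 to 0.045, adjusted p = 0.939, edgeR) and -0.021 for Lpcat3 (95% interval -0.11 to 0.064, adjusted p = 0.971, edgeR).

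**Figure D2:**
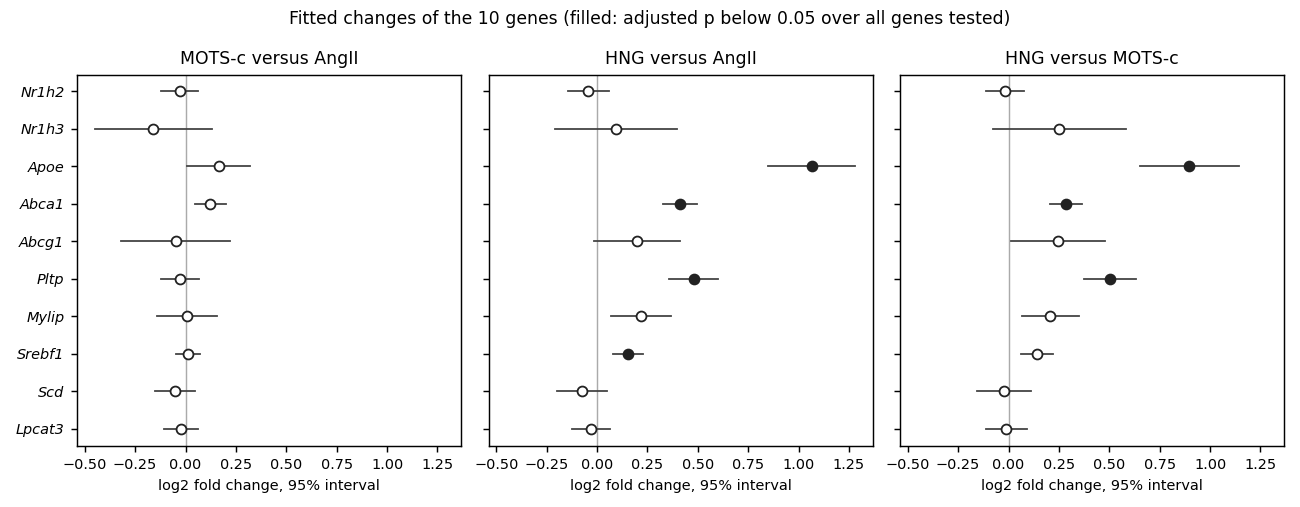
Log2 fold change (horizontal axes) with its 95% interval for the 10 genes in the 3 comparisons, filled where the adjusted p over all genes tested was below 0.05. Apoe, Pltp, Abca1 and Srebf1 are filled for HNG against AngII, the first 3 also for HNG against MOTS-c, and none for MOTS-c against AngII.

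Counted together, 4 of the 10 genes (Apoe, Abca1, Pltp and Srebf1) were past the threshold for HNG against AngII, all of them higher, where 5.98% of all genes tested were past it in either direction and 3.40% were past it and higher. The same 4 genes were those whose groups did not overlap, against 13.7% of all genes in either direction and 6.87% with higher values. This comparison chose the genes, so nothing is read from these counts. The median log2 fold change of the 10 genes was 0.18, beside 0.0043 over all 14524 genes tested. For HNG against MOTS-c, 3 genes (Apoe, Pltp and Abca1) were past the threshold and higher, beside 4.41% of 14448 genes in either direction and 2.64% higher. Srebf1 joined them in the count of groups that did not overlap, beside 12.6% in either direction and 6.37% higher. For MOTS-c against AngII, 0 of the 10 genes were past the threshold in edgeR's quasi-likelihood test, where 1 of 14488 genes was (0.00690%), the ubiquitin ligase gene Trim15. At an unadjusted p below 0.05 there were 2 of the 10 genes, Abca1 and Apoe, and 732 of all genes. DESeq2 also called 0 of the 10 genes. The groups did not overlap for 1 of the 10, Abca1, beside 3.41% of all genes, and the median log2 fold change of the 10 was -0.023 beside -0.00076 over all genes.

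Other genes of the pathway were read from lists, whose counts for HNG against AngII stand beside the 5.98% of all genes tested that were past the threshold (3.40% higher). A single call, as in the lists of LXR partners and of oxysterol enzymes, lies near that share and is no result about the list. Of 24 further LXR targets, 15 were tested, and for HNG against AngII 3 rose and 1 fell, with a median log2 fold change of 0.056. The 3 that rose were Smpdl3a, which encodes a secreted phosphodiesterase (0.48, SE 0.078), Lpl, the lipoprotein lipase (0.23), and Npc2, which binds cholesterol in lysosomes (0.20). Tgm2, a transglutaminase that crosslinks matrix proteins, fell by 0.28 on the log2 scale. Smpdl3a had 29.6 ± 2.91 CPM in AngII, 41.2 ± 3.69 CPM in AngII+HNG and 28.4 ± 3.31 CPM in AngII+MOTS-c (SD, n = 4 each). The paired sterol transporters Abcg5 and Abcg8 had 0 counts in all 12 libraries, where 3 counts would be 0.0787 to 0.106 CPM in each library.

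Of 16 LXR partners and coregulators, 15 were tested and 1 rose with HNG, Rxra, the retinoid X receptor that pairs with LXRs (log2 fold change 0.24), while the list's median was -0.017. Of 14 enzymes that make or remove oxysterols and desmosterol, 12 were tested and 1 rose, Hsd3b7, an enzyme of bile acid synthesis from oxysterols (0.30). Against MOTS-c, Cyp27a1, a mitochondrial sterol hydroxylase, was higher as well (0.35, SE 0.082), and for HNG against AngII it was at 0.31 (SE 0.098) and not past the threshold.

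Targets of the SREBP factors were counted by sign and by call. Over all 14524 genes tested for HNG against AngII the median was 0.0043, and 375 genes were past the threshold and lower. The share of all genes with a negative value was not computed. Of 20 SREBP1 targets of fatty acid synthesis, 13 had a negative log2 fold change with HNG, and the median was -0.068. Me1, the malic enzyme that supplies NADPH, and Elovl6, a fatty acid elongase, fell by 0.26 and 0.24 on the log2 scale. Scd, already described, is a member of this list. Of 14 SREBP2 targets of cholesterol synthesis and uptake, 13 had a negative value, the median was -0.13, and 2 fell, Idi1 (-0.28) and Sc5d (-0.20), both enzymes of the sterol pathway. Negative values were as many for MOTS-c against AngII, which shares the AngII libraries, at 13 of the 20 SREBP1 targets and 13 of the 14 SREBP2 targets, with medians of -0.013 and -0.038. Srebf1 itself was higher in AngII+HNG. None of the 20 listed SREBP1 targets passed the threshold on the higher side, where 3.40% of all genes tested did. That count lies near the share and is no result about the list.

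Among 21 apolipoproteins and genes of high-density lipoprotein assembly, 11 were tested, and Abca2, a lysosomal lipid transporter (0.27), and Lpl rose with HNG. Of 11 ApoE receptors, Trem2, a lipid-sensing receptor of macrophages (0.48), Gpc1, a heparan sulfate proteoglycan (0.22), and Lrp1, a large endocytic receptor (0.17), rose, and Sdc1, a syndecan, fell by 0.25 on the log2 scale. Of 9 genes beside Apoe on the chromosome, 6 were tested and 1 passed, Nectin2, a cell adhesion molecule, which fell by 0.20 on the log2 scale. Tomm40, a subunit of the mitochondrial import channel, had a log2 fold change of -0.092 (SE 0.070). Apoc1, an LXR target in the same cluster, had 0 counts in every AngII library, 0 to 8 in AngII+HNG and 0 to 3 in AngII+MOTS-c, and Apoc2 and Apoc4 had at most 1 count in any library. For MOTS-c against AngII, edgeR's quasi-likelihood test called 0 genes in each of these 8 lists. At an unadjusted p below 0.05 in that test there were 732 of all 14488 genes. In the lists there were 2 in the SREBP2 list, Fdps (-0.11) and Idi1 (-0.082), and 2 in the apolipoprotein list, Apoa1 (-0.78) and Abca2 (0.17), with none in the other 6. Nothing is read from these counts.

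**Figure D3:**
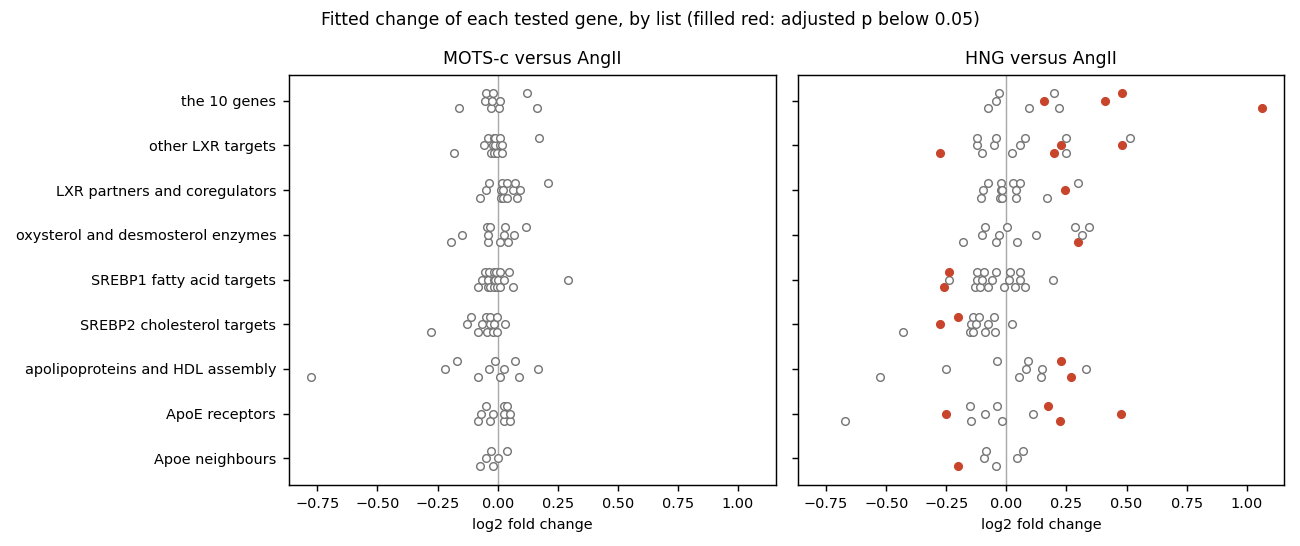
Log2 fold change (horizontal axes) of every tested gene in 9 lists for MOTS-c against AngII and HNG against AngII, 1 point per gene, filled red where the adjusted p over all genes tested was below 0.05. No point is filled for MOTS-c, and Apoe is the rightmost point for HNG at 1.06.

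Among markers of other cell types, the macrophage, endothelial and adipocyte sums were higher in AngII+HNG than in AngII. The 17 macrophage markers summed to 321 to 390 CPM in AngII, 427 to 553 CPM in AngII+HNG and 316 to 381 CPM in AngII+MOTS-c, so that AngII+HNG did not overlap the others. Lyz2 alone had 92.7 to 200.7 CPM over the 12 libraries, a large part of these sums. Of 16 that were tested for HNG against AngII, 12 had a positive log2 fold change, with a median of 0.29. Past the threshold, 4 rose, among them Lyz2 (0.75), Cd68 (0.69) and Mrc1 (0.55), and 1, Cx3cr1, fell by 1.27 on the log2 scale. Of all genes tested, 5.98% were past it in either direction and 3.40% higher. C1qc (-0.43), C1qb (-0.046), C1qa (0.10) and Csf1r (0.17) were not past it. No marker was at 0 in all 12 libraries, and Adgre1 and Cd163 were at 2.24 to 3.89 CPM (log2 fold change -0.36 for Adgre1, not past the threshold) and at 0 to 0.548 CPM. AngII+MOTS-c replicate 2, the library with low Apoe, had the lowest macrophage sum of the 12, at 316.1 CPM, and AngII+HNG replicates 3 and 4 had the highest Apoe and the highest sums, at 481.7 and 553.2 CPM. The order of those 2 libraries was opposite for Apoe and for the sum. The 6 endothelial markers summed to 58.5 to 66.3, 74.5 to 82.2 and 61.2 to 66.6 CPM, and the 5 adipocyte markers to 5.25 to 7.15, 8.18 to 9.15 and 4.34 to 5.58 CPM, in AngII, AngII+HNG and AngII+MOTS-c. Past the threshold for HNG against AngII were further Kdr (0.43) and Tek (0.40) of the endothelial list, Fabp4 (0.54) of the adipocyte list, Tnni3 (0.43) of the cardiomyocyte list and Tcf21 (0.28) and Thy1 (0.17) of the fibroblast list, which were higher, and Cnn1 (-0.41), Notch3 (-0.38) and Myh11 (-0.34) of the smooth muscle list, which were lower, as log2 fold changes. The sums of the fibroblast, cardiomyocyte, Schwann cell, smooth muscle and epicardial lists overlapped between AngII+HNG and AngII. The part of these markers in the levels of Apoe, Abca1, Pltp and Srebf1 was not tested.

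The genes whose pattern was most like that of Apoe were ranked by Pearson's r of log2 CPM over the 12 libraries, among the 10653 other genes that averaged 5 CPM or more. The libraries share treatments, so r describes the pattern only. Man2b1 (r = 0.986) and Ctsf (0.977), both lysosomal enzymes, Slc27a1, a fatty acid transporter (0.970), Srebf1 (0.968) and Tgfbi, a matrix protein (0.965), came first. Without AngII+HNG replicates 3 and 4, the libraries farthest from the median of Apoe, these values were 0.965, 0.944, 0.934, 0.921 and 0.933.

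After each treatment's mean was subtracted, which leaves the variation between libraries of 1 treatment, the first 5 were Ctsb, a lysosomal protease (r = 0.963), Fcgrt, the neonatal Fc receptor (0.956), Adamtsl2, a secreted matrix protein (0.935), Cul7, a ubiquitin ligase scaffold (0.932), and Clta, a clathrin light chain (0.922). On this scale Srebf1 had r = 0.739, Pltp 0.458 and Abca1 0.340. Scd ran opposite to Apoe, with r = -0.848, and only 80 of the 10653 genes had a lower value. Without AngII+MOTS-c replicate 2 and AngII+HNG replicate 1, the libraries that deviated most, the value for Scd was -0.771, that for Srebf1 0.685, that for Pltp 0.212 and that for Abca1 -0.0048, so the likeness of Abca1 rested on those 2 libraries. In the individual libraries, AngII+MOTS-c replicate 2 had the highest Scd of the 12, 243.2 CPM, beside its low Apoe, and AngII+HNG replicates 3 and 4 had the lowest, 207.0 and 200.9 CPM, beside the highest Apoe. In all 3 groups replicate 4 had the lowest Scd (217.3, 200.9 and 210.7 CPM in AngII, AngII+HNG and AngII+MOTS-c) and the highest macrophage marker sum (389.9, 553.2 and 381.3 CPM), so these libraries stood apart together, and their part in the relation of Apoe with Scd was not tested.

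**Figure D4:**
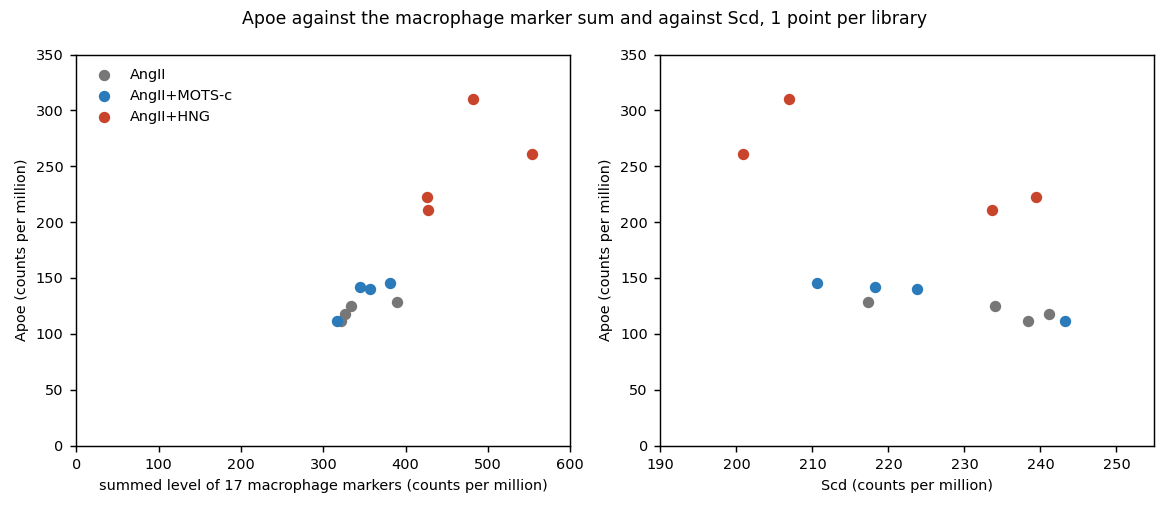
Apoe (vertical axes, CPM, from 0) against the summed level of 17 macrophage markers (left) and against Scd (right, axis not from 0), 1 point per library, coloured by group. Within each group the libraries with more Apoe tend to have higher marker sums and less Scd, and the 4 AngII+HNG libraries lie above all others in Apoe. Replicate 4 has the highest sum and the lowest Scd of each group.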

How the data were processed

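RNA of 12 samples was made into libraries with an mRNA kit and sequenced as paired-end reads on a DNBSEQ platform. The authors deposited raw counts per gene and FPKM values per gene for each library, and the submitters' processing notes name HISAT2, Picard 1.41 and SAMtools 0.1.18. The counting tool, its strand setting and the genome build are not given in the sources used here. Groups and replicate numbers came from the sample titles. The members and gene lists were chosen with earlier results of these data known.

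Counts were tested with edgeR 4.0.16 (R 4.3.3) by the quasi-likelihood test on the 8 libraries of each comparison, after filterByExpr and TMM scaling, with Benjamini-Hochberg adjustment over all genes kept and a threshold of 0.05. CPM and log2 CPM (prior count 2) used TMM factors over all 12 libraries, and 95% intervals used the fit's degrees of freedom. FPKM was used to compare genes. The test was also run on simulated counts, and the outcome is not reported here. The study describes 4 biological replicates a group as independent samples, without naming separate cultures, so p-values measure the spread between these libraries. Library names number replicate 1 as 1 in AngII and AngII+HNG and as 2 in AngII+MOTS-c. They give replicates 2 and 3 of each group the same number. If that marks 2 libraries of 1 culture, which the sources used here do not say, a group holds 3 independent samples, and the printed SDs (n = 4), p-values and exact tests are too narrow or too small.

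Named genes were the 10 members, list genes with an adjusted p below 0.05 (at most 4 per list and comparison, by absolute log2 fold change), and the genes most like Apoe. Cyp27a1 and Tomm40 in comparisons where they did not pass, Scd2, Abcg5, Abcg8, the Apoc genes, Apoa1, Fdps, Adgre1, Cd163, C1qa, C1qb, C1qc, Csf1r, Myh6 and Trim15 fall outside this rule and were picked once their values were known. Alternatives were DESeq2 1.42.0, limma 3.58.1 on log2(FPKM + 1) and log2(FPKM + 0.1), other scalings and filters, all libraries in 1 fit, blocks, summed replicates and leaving out each library.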

Additional observations from a re-analysis of the deposited data

Results flagged for a closer look

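Apoe in AngII+MOTS-c replicate 2 stood apart from the other 3 libraries of its group, at 111.4 CPM against 140.5 CPM in the nearest one. The gap was 0.846 of the group's range, above Dixon's 95% critical value for 4 samples. It was the 1 case among 30 groups tested (10 genes in 3 groups), and chance flags about 1 group in 20.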

How the results depend on the processing

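Of 570 recomputed log2 fold changes of the 10 genes, 542 kept their direction and their side of the threshold under 23 settings. Of the others, 4 (Srebf1, HNG against AngII) lost the call, 7 (Srebf1 and Mylip) gained one, and 17 turned direction without being called. For MOTS-c against AngII, 0 of the 10 genes were called under each alternative. For HNG against AngII and against MOTS-c, the comparisons tied to the choice of genes, the calls of Apoe, Abca1 and Pltp did not change, which is no independent support since the alternatives use the same libraries. Srebf1 was called for HNG against MOTS-c with DESeq2, with robust estimation, with all 12 libraries in 1 fit, with the replicate block and with at least 10 counts in every library.

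The number of genes called for MOTS-c against AngII was 1 in the reported fit, 3 with DESeq2, 0 with all 12 libraries in 1 fit, 0 with replicates 2 and 3 summed, and 0 to 3 when 1 library was left out (3 without AngII+MOTS-c replicate 1). For HNG against AngII it was 869, 577 with replicates 2 and 3 summed, and 431 to 932 when 1 library was left out, the low values coming without AngII replicate 1, 2 (485) or 3 (512). For HNG against MOTS-c it was 637, 1042 with DESeq2, 975 with all 12 libraries in 1 fit, and 322 to 625 when 1 library was left out, with 322, 324 and 389 without AngII+MOTS-c replicates 2, 1 and 3 and 416 without AngII+HNG replicate 2. The fits that left out a library had fewer samples. The cause of the other shifts was not tested.

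Samples with the same replicate number did not deviate together throughout (r of their deviations from 2.6e-05 to 0.119 for MOTS-c against AngII, -0.075 to 0.136 for HNG against AngII and -0.014 to 0.212 for HNG against MOTS-c), so the numbers were not taken as pairs. Replicate 4 gave the highest r of each comparison and was best matched by its own number in all 3. Replicate 3 for MOTS-c against AngII (0.069) and replicate 2 for HNG against MOTS-c (0.159) were also best matched by their own number. With the replicate block, the genes called were 2 for MOTS-c against AngII (1 in the reported fit) and 1054 for HNG against MOTS-c (637 in the reported fit).

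Directions that turned were near 0. For MOTS-c against AngII, a block on the numbers in the library names gave 0.098 for Apoe (0.16 in the reported fit), 0.038 for Abcg1 and -0.079 for Mylip. In that fit replicate 1 of each group adds nothing to the difference. Leaving out 1 library gave, for the same comparison, -0.13 to 0.044 for Abcg1, -0.042 to 0.054 for Mylip, -0.00050 to 0.019 for Srebf1 and -0.046 to 0.0084 for Lpcat3. For HNG against AngII it gave -0.0090 to 0.17 for Nr1h3, and for HNG against MOTS-c -0.072 to 0.020 for Scd and -0.048 to 0.016 for Lpcat3, which was at 0.00068 with limma on log2(FPKM + 1) and 0.00069 on log2(FPKM + 0.1). The difference in Apoe between MOTS-c and AngII, in log2 CPM, was 0.117 to 0.246 when 1 library was left out. Without AngII+MOTS-c replicate 2 alone, the exact permutation test gave its smallest possible p, 0.0286, an outcome fixed by the choice of that library. Nr1h3 had the fewest counts of the 10 genes.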
